A study of Mus musculus with 8 samples.

Results

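*Zic1* and *Zic2* encode zinc finger transcription factors of neural development and were examined in mouse embryonic fibroblasts (MEFs), a culture of connective tissue cells taken from an embryo. They are 2 of the 875 genes in the deposited expression table. Both were chosen by name because their released levels in K27M cells differ, so their values in these libraries are described without a test. RNA was sequenced after removal of ribosomal RNA in 4 groups of 2 libraries each. All cells came from MEFs in which *EED* is flanked by loxP sites. The unmodified parental cells were the control. EZHIP cells stably expressed human *EZHIP* from a lentivirus, and K27M cells likewise expressed histone H3.3 carrying the K27M substitution. EED-null cells had lost *EED* after a Cre lentivirus and were grown from a single clone. The effect of losing *EED* and any feature of that clone cannot be told apart. Each modified group received a lentivirus and the control did not, so any effect of transduction cannot be told apart in differences from control. Levels of the EZHIP and K27M transgenes were not compared, and their part in differences between these cells was not tested. *Eed* is not in the table, so its loss was not checked.

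ZIC proteins share a zinc finger domain related to that of the GLI factors, which carry the Hedgehog signal to DNA. They act in neurulation, in the dorsal neural tube and cerebellum, and in the neural crest. *Zic1* and *Zic4* are neighbours with roles in cerebellar growth, and loss of *Zic2* function causes defects of forebrain and neural tube closure. In cells outside these lineages such developmental regulators are usually silenced by Polycomb repressive complex 2 (PRC2), which methylates lysine 27 of histone H3 and needs its EED subunit. H3 K27M and EZHIP both inhibit PRC2, and the comparison of the 3 modified cell types asks how far each releases the genes that PRC2 holds silent.

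The table was restricted beforehand to genes that differ at least 2-fold between EZHIP and control cells. Values are estimated reads divided by a size factor for each library, here called normalized expression. The libraries held between 209390 and 424561 estimated reads on the listed genes, and 1 read was worth between 0.738 and 1.39 units of expression. Of 16 fibroblast markers 3 were listed (*Col3a1*, *Dcn* and *Fap*), so the identity of the cells could be checked only in part. In the list of neuron markers 2 of 18 were listed, in the glial and progenitor list 4 of 16, in the endothelial list 1 of 8, in the epithelial list 2 of 8 and in the leukocyte list 0 of 8.

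In the mm9 annotation, *Zic1* (ENSMUSG00000032368.8) is a minus-strand gene of chromosome 9, from 91252896 to 91260648. *Zic4* (ENSMUSG00000036972.8) lies on the plus strand of the same chromosome from 91257251 to 91284186. The gene bodies overlap by 3398 bp, and the main transcripts, *Zic1*-001 and *Zic4*-001, start 3202 bp apart and point away from each other. *Zic2* (ENSMUSG00000061524.7) lies on the plus strand of chromosome 14 from 122874604 to 122879074. Its neighbour *Zic5* is transcribed the other way, with its main transcript starting 9758 bp away. *Zic5* is not in the table.

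**Figure D1:**
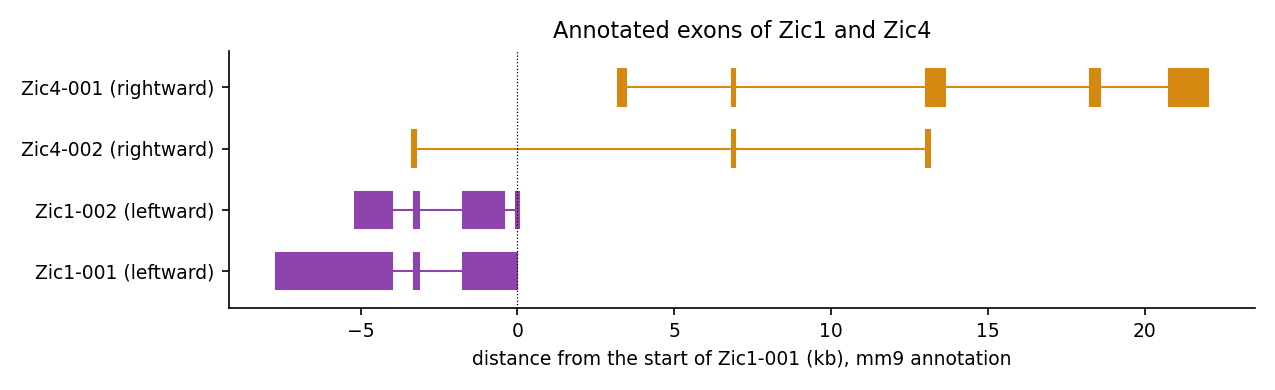
Annotated exons (boxes) and introns (lines) of 2 transcripts each of *Zic1* (purple) and *Zic4* (orange) in mm9, by distance in kb from the start of *Zic1*-001 (dotted line). The main transcripts point away from each other, and of the transcripts drawn only *Zic4*-002 begins inside *Zic1*.

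Since *Zic1* and *Zic4* share a region of chromosome 9, the 250 bases before each RefSeq start are shown, with every CG pair in capitals. CG-dense promoters are a common feature of PRC2 targets. The promoter set used here held no *Zic2* entry, so *Zic1* and *Zic2* could not be compared in this way.

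*Zic1* (GRCm38.p6, chr9:91365769-91366018, minus strand): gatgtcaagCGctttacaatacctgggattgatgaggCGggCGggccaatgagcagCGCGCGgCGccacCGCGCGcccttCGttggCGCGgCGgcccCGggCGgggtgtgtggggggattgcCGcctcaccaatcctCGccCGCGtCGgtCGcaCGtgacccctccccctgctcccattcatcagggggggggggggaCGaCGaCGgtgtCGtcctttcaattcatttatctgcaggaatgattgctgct
*Zic4* (GRCm38.p6, chr9:91368722-91368971, plus strand): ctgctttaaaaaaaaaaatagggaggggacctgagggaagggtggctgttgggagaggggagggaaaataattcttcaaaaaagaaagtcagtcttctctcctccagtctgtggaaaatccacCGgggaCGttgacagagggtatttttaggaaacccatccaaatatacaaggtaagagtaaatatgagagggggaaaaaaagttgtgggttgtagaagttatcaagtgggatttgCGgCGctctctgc

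The *Zic1* window holds 27 CG pairs, and 8.16% of 27025 RefSeq promoters hold as many in the same length. The *Zic4* window holds 4, against a median of 6 over all promoters. The G and C content was 66% for *Zic1* and 44.4% for *Zic4*. No mark or binding was measured in these libraries, so the counts describe the sequences only.

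*Zic1*, *Zic2* and *Zic4* are related genes, and how reads that match more than 1 of them were divided is not given in the sources used here. *Zic1* and *Zic4* exons overlap on opposite strands by 60 bp, all within the transcript *Zic4*-002, and the counting is not stated to use strand, so reads from these bases cannot be told apart.

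*Zic1* was almost silent in control cells and high in EZHIP and EED-null cells, but it remained near the control level in K27M cells. Its normalized expression was 4.11 and 0.738 in the control libraries, which is 4 reads and 1 read, and 13.9 and 8.74 in the K27M libraries, which is 15 and 10 reads. It was 643 and 644 in the EZHIP libraries and 968 and 1035 in the EED-null libraries. The 4 groups did not overlap in any pair, in the order control, K27M, EZHIP and EED-null. Group means were 2.42 ± 2.38 for control, 11.3 ± 3.66 for K27M, 643 ± 0.985 for EZHIP and 1001 ± 47.3 for EED-null (SD, n = 2 each).

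*Zic2* had the same order of groups, but its K27M level was much closer to its EZHIP level. Its normalized expression was 0 and 0.738 in the control libraries (0 and 1 reads) and 122 and 123 in the K27M libraries (132 and 141 reads). It was 228 and 254 in the EZHIP libraries and 604 and 587 in the EED-null libraries. Again no group overlapped another. Group means were 0.369 ± 0.522 for control, 123 ± 0.59 for K27M, 241 ± 18.2 for EZHIP and 595 ± 12.7 for EED-null (SD, n = 2 each).

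**Figure D2:**
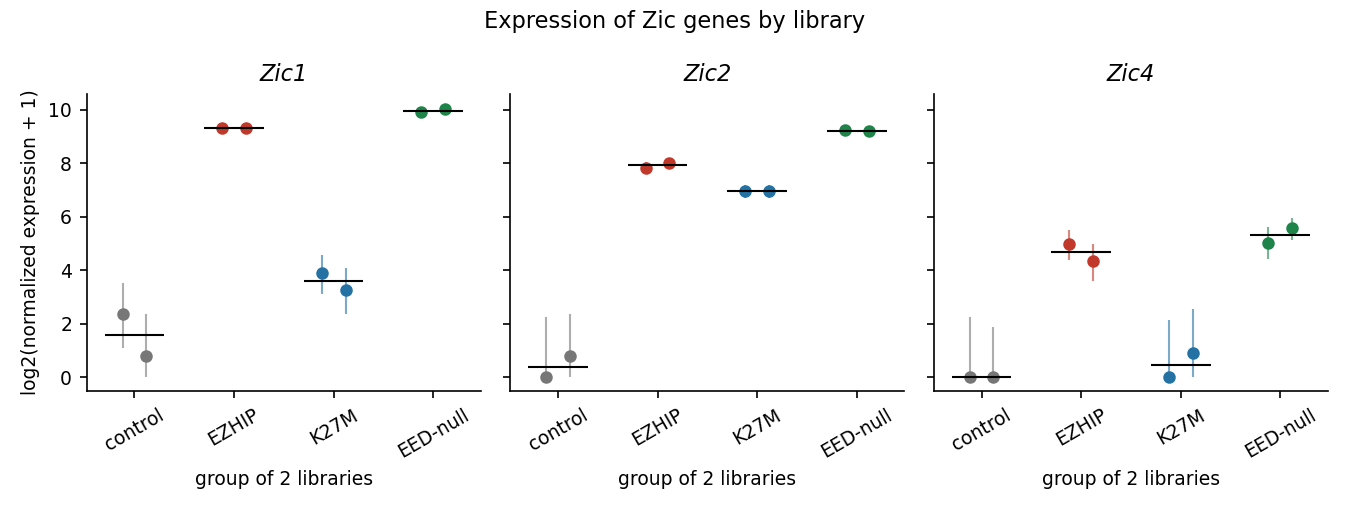
Normalized expression of *Zic1*, *Zic2* and *Zic4* on the log2(value + 1) scale in the 8 libraries (points), with group means (black lines) and 95% exact Poisson intervals of the reads (vertical lines, which cover counting error only). K27M libraries lie near control for *Zic1* and *Zic4* and near EZHIP for *Zic2*.

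The groups of these genes did not overlap, but that is common in this table. Between EZHIP and control libraries, 56.6% of the 875 genes lay wholly higher in EZHIP, and the table was chosen on that comparison. Libraries lay wholly higher than control for 57.4% of genes in the K27M group and for 53.7% in the EED-null group. K27M libraries lay wholly lower than EZHIP for 41.7% of genes and wholly lower than EED-null for 44.2%, while EED-null libraries lay wholly higher than EZHIP for 46.6%. In bulk RNA, fewer cells that express a gene and less RNA per cell cannot be told apart.

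In K27M cells, *Zic1* stood at 1.76% of its EZHIP level and *Zic2* at 50.9%. The corresponding log2 differences, K27M minus EZHIP, were -5.74 for *Zic1* and -0.97 for *Zic2* on log2(value + 1), a scale on which low genes appear to change less than they do. The library pairs gave -6.05 to -5.43 for *Zic1* and -1.05 to -0.88 for *Zic2*. Of the 495 listed genes higher in EZHIP than in control, the median difference was -0.67, and only 4 fell below *Zic1* (0.808%). For *Zic2* 210 of the 495 (42.4%) lay below it, so its difference was close to the middle of these genes.

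Against control, the K27M level of *Zic1* rested on 25 reads in K27M cells and 5 in control cells. The ratio of reads, corrected for depth, was 5.24 with a 95% counting interval of 1.97 to 17.5, and the log2 difference was 2.02, with library pairs between 0.93 and 3.10. Leaving out 1 control library moved it to 2.79 (without the first) or 1.24 (without the second). The libraries nearest to each other, the lower K27M library with 8.74 (10 reads) and the higher control library with 4.11 (4 reads), had counting intervals of 4.19 to 16.1 and 1.12 to 10.5 for the level of *Zic1*.

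*Zic2* differed far more between K27M and control cells. Its ratio of reads was 286 with a 95% counting interval of 50.9 to 11342, since the control cells held only 1 read. The log2 difference was 6.55. The same ratio was 563 for EZHIP against control (100.4 to 22273) and 1383 for EED-null against control (247.6 to 54668).

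*Zic1* and *Zic2* were both highest in EED-null cells. *Zic1* was at 156% of its EZHIP level, a log2 difference of 0.64 with library pairs from 0.59 to 0.69. *Zic2* was at 247%, a log2 difference of 1.30, and its ratio of reads was 2.46 with a 95% counting interval of 2.19 to 2.76. Of the 495 genes higher in EZHIP, 71.9% had a lower EED-null minus EZHIP difference than *Zic1* and 85.3% a lower one than *Zic2*, while the median was -0.18. K27M cells stood at 1.13% of the EED-null level for *Zic1* and at 20.6% for *Zic2*, log2 differences of -6.38 and -2.27.

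**Figure D3:**
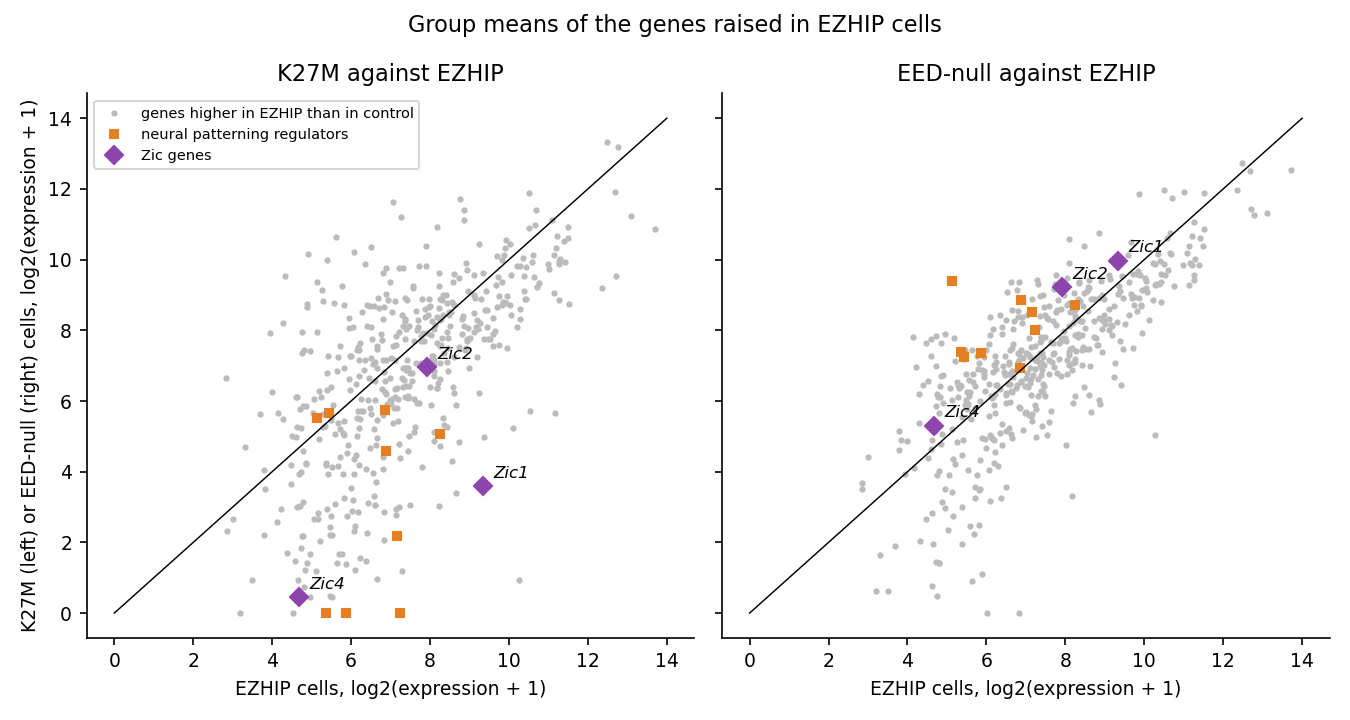
Group means on the log2(normalized expression + 1) scale of the 495 listed genes with a higher mean in EZHIP than in control cells (grey points), EZHIP on the horizontal axis and K27M or EED-null on the vertical axis, with neural patterning regulators (orange) and *Zic* genes (purple), and a line of equal levels. *Zic1* lies far below the line in K27M cells and above it in EED-null cells, and *Zic2* lies 0.97 below it in K27M cells.

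Markers of other cell types also changed in these libraries. Of the 4 listed glial and progenitor markers, *Mbp*, *Prom1* and *Slc1a2* had higher means than control in EZHIP cells, as *Zic1* and *Zic2* did. By limma with Benjamini-Hochberg adjustment, all 3 were called higher than control in both K27M and EED-null cells. The shares called higher there were 41.4% and 39.9% of all listed genes, and 62.4% and 68.3% of those raised in EZHIP cells. *Prom1*, a progenitor marker, had the group order that *Zic1* and *Zic2* share. It stood at 0 and 0.738 in control, 3.71 and 13.1 in K27M, 22.5 and 28.5 in EZHIP and 56.8 and 56.2 in EED-null libraries. Its K27M mean was 33.0% of its EZHIP mean. *Slc1a2*, a glutamate transporter, had a mean of 25.5 in control, 61.1 in K27M, 204 in EZHIP and 200 in EED-null cells, whereas *Mbp*, a myelin protein, was highest in K27M cells, with means of 12.4 in control, 39.8 for EZHIP, 565 for K27M and 91.7 for EED-null cells. *Cspg4* was lower than control in every modified group, and since its control mean of 1208 outweighs the others, the list summed to 1219 to 1273 in control libraries against 760 to 774 for EZHIP, 990 to 1181 for K27M and 528 to 567 for EED-null libraries.

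Both epithelial markers, *Epcam* and *Krt14*, had higher means than control in all 3 modified groups, and they summed to 3.69 to 6.16 in control, 36.5 to 59.2 for EZHIP, 109 to 141 for K27M and 24.4 to 43.0 for EED-null libraries. The endothelial marker *Kdr* had means of 9.42 in control, 51.7 for EZHIP, 189 for K27M and 10.9 for EED-null cells. Of the 2 neuron markers, *Mtap2* (MAP2) was lower than control in each modified group, and *Stmn2* had means of 44.6 in control, 1.75 for EZHIP, 12.7 for K27M and 56.6 for EED-null cells. The neuron sums, mostly *Mtap2*, were 1781 to 1842 in control, 662 to 677 for EZHIP, 719 to 739 for K27M and 227 to 256 for EED-null libraries.

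The 3 fibroblast markers summed to 17719 to 18112 in control libraries, whereas EZHIP libraries had 6460 to 6934, K27M libraries 5560 to 5876 and EED-null libraries 5723 to 5805. *Col3a1* had means of 17455 in control, 6532 for EZHIP, 2361 for K27M and 5687 for EED-null cells. It was the largest part of the sums except in K27M cells, where *Dcn* was larger. *Dcn* (decorin) and *Fap* ran apart from *Col3a1* and opposite to *Zic1* between the modified cells. *Dcn* had means of 372 in control, 154 for EZHIP, 3224 for K27M and 71.5 for EED-null cells, and *Fap* of 88.3, 11.0, 133 and 5.75 in the same order. The part of any of these marker changes in the *Zic* levels was not tested.

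The reads of both genes in the same library give a comparison that needs no size factor. In the EZHIP libraries the ratio of *Zic2* to *Zic1* reads was 0.355 and 0.395, and in the EED-null libraries it was 0.625 and 0.567. *Zic1* was thus the more abundant in reads in both groups. In the K27M libraries it was 8.80 and 14.1. *Zic2* thus held the larger share of the reads in K27M libraries alone among the modified cells, at 89.8% (95% exact binomial interval 83.7 to 94.2) and 93.4% (88.2 to 96.8) of the reads of both genes. In the control libraries the reads were too few for a ratio.

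Levels of the 2 genes can be compared only per length, and the reads do not say which transcript they came from. Per 1000 nt of transcript, EZHIP cells had a *Zic1* expression of 115 if the reads came from *Zic1*-001 (5606 nt) and 235 if from *Zic1*-002 (2739 nt), and a *Zic2* expression of 98.9 from *Zic2*-001 (2440 nt) or 92.2 from *Zic2*-201 (2617 nt). In K27M cells *Zic1* came to 2.02 or 4.14 and *Zic2* to 50.3 or 46.9, so *Zic2* was the higher for every choice. In EED-null cells *Zic1* came to 179 or 366 and *Zic2* to 244 or 228, so the order of the 2 genes there depended on the transcript of *Zic1*.

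*Zic4*, the overlapping neighbour of *Zic1*, followed *Zic1* at a lower level. Its normalized expression was 0 in both control libraries and 0 and 0.874 in the K27M libraries (0 and 1 reads). The EZHIP libraries had 30.8 and 19.4 (26 and 17 reads) and the EED-null libraries 31.9 and 46.5 (23 and 48 reads). Against control it was at least 9.47-fold higher in EZHIP and at least 14.8-fold higher in EED-null cells, taking 3 reads per library as the limit of detection, and K27M and control were both below this limit. Its K27M minus EZHIP log2 difference was -4.22 (limma, Benjamini-Hochberg adjusted p = 1.0e-04), and the ratio of reads was 0.0180 with a counting interval of 0.000446 to 0.106. In that comparison 26.2% of listed genes were called lower and 32.6% higher, at an adjusted p under 0.05 and at least 2-fold. The EED-null minus control difference was 5.30 (limma, Benjamini-Hochberg adjusted p = 2.8e-05), where 39.9% of genes were called higher, and the EED-null minus EZHIP difference of 0.64 did not pass (adjusted p = 0.17 from limma with Benjamini-Hochberg adjustment). *Zic4* reads amounted to 4.79% and 3.01% of the *Zic1* reads in EZHIP and to 3.30% and 4.50% in EED-null libraries.

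Apart from *Zic4*, the nearest listed genes lie megabases away. The nearest below *Zic1*, *Prss35*, ends 4602216 bp away, and its control libraries stood at 185 and 211. The EZHIP libraries stood at 26.1 and 35.3, the K27M libraries at 107 and 120 and the EED-null libraries at 40.1 and 34.8, opposite in direction to *Zic1* against control in each case. The nearest below *Zic2* is *Dzip1*, 3549995 bp away, at 1070 and 1055 in control and between 461 and 634 in the other libraries. Within 1 Mb of *Zic1* there are 4 protein-coding genes, of which 1 (*Zic4*) is listed. Within 1 Mb of *Zic2* there are 15, none of them listed.

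Over the 8 libraries, the genes with the most similar profile were found by Pearson correlation of log2(value + 1) among 244 genes whose group means span at least 4 on that scale. The points are 4 groups of 2 libraries, so a correlation here describes the order and spacing of the groups. For *Zic1* they were *Mmp10* (r = 0.996), a matrix-degrading protease, *Sp8* (0.991), a zinc finger regulator of limb and forebrain growth, *Stk32b* (0.989), a kinase, *Dnahc5* (0.989), a ciliary dynein chain, and *Inhbb* (0.989), an activin and inhibin subunit. The K27M means of these 5 lay between 2.40% and 14.5% of their EZHIP means. *Zic4* came at rank 10, with r = 0.973.

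For *Zic2* the most similar were *Pip5k1b* (r = 0.997), a phosphoinositide kinase, *Jph1* (0.995), a junctional membrane protein, *Homer2* (0.991), a synaptic scaffold, *Cacnb2* (0.991), a calcium channel subunit, and *Nfasc* (0.991), an adhesion protein of axons. *Pip5k1b*, for example, had a control mean of 0.369, an EZHIP mean of 47.0, a K27M mean of 32.5 and an EED-null mean of 75.8. *Zic1* and *Zic2* correlated with each other at 0.833. The lists depended on the measure. Spearman correlation shared 1 of the 5 genes for each, and Euclidean distance shared 2 for *Zic1* and 0 for *Zic2*.

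**Figure D4:**
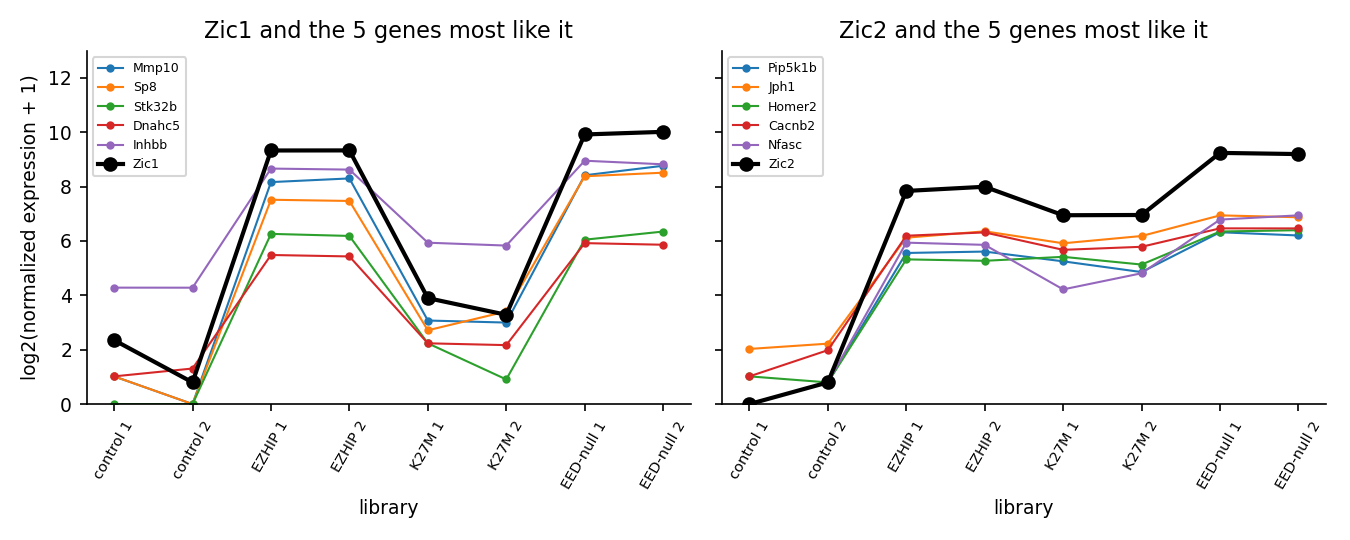
Profiles on the log2(normalized expression + 1) scale over the 8 libraries of *Zic1* (left, black) and *Zic2* (right, black) with the 5 genes whose profile correlates best with each (colours). The *Zic1* profiles drop in the K27M libraries and the *Zic2* profiles drop much less.

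The neural tube and brain patterning list, to which the ZIC genes are related by role, holds 91 genes, and 10 of them are in the table. Of these, 9 had higher means in EZHIP than in control cells, and of the 495 raised genes overall 40.0% were called lower and 17.8% higher in K27M than in EZHIP cells by limma. In the list of 9 there were 7 lower and 0 higher, with a median difference of -3.18 against -0.67 for all raised genes. Against control, 9 of the 10 were called higher in EED-null cells, where 39.9% of all listed genes and 68.3% of those raised in EZHIP cells were. In K27M cells 5 were called higher, where 41.4% of all listed genes and 62.4% of those raised in EZHIP cells were. The 5 were *En2*, *Irx5*, *Isl1*, *Msx1* and *Eomes*.

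*Sox2*, a stem cell and neural progenitor factor, and *Otx2* and *Nkx6-1*, patterning factors, were at 0 in both control and both K27M libraries. *Sox2* stood at 166 and 137 in EZHIP and 245 and 270 in EED-null cells. *Six3*, an eye and forebrain factor, stood at 2.78 and 4.37 in K27M against 133 and 152 in EZHIP cells.

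*Isl1*, a motor neuron factor, and *Eomes* did not have lower means in K27M than in EZHIP cells. They stood at 113% and 131% of their EZHIP means, whereas *Zic2* stood at 50.9%. *Isl1* stood at 0 in both control libraries, at 54.4 and 33.1 in the EZHIP libraries, at 44.5 and 54.2 in the K27M libraries and at 155 and 144 in the EED-null libraries. Its K27M minus EZHIP difference was 0.21 (limma, Benjamini-Hochberg adjusted p = 0.45). Of the listed neural regulators, *Irx5* was closest to *Zic2*, at 46.3% of its EZHIP mean in K27M cells. *En2* stood at 19.7%. The *Irx5* call was lost with a pseudocount of 0.1. It was also lost in each of the 6 fits that left out 1 of the EZHIP, K27M or EED-null libraries. *Msx1*, at 10.8%, and *Lmx1b*, which was lower in EZHIP than in control cells, are named here after their values were seen.

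**Figure D5:**
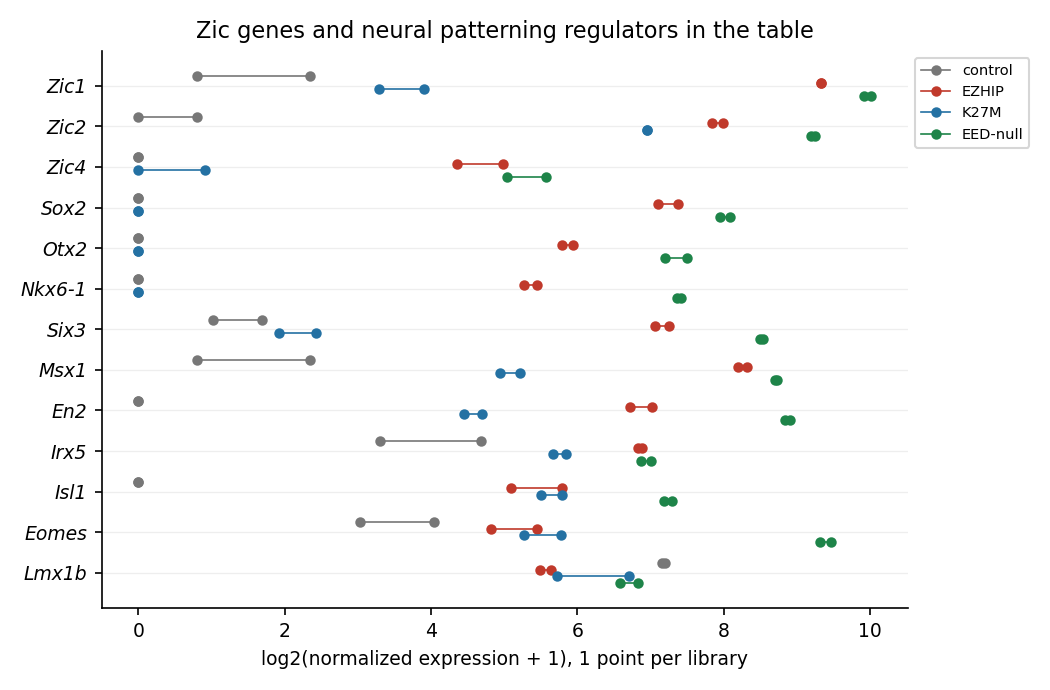
Levels on the log2(normalized expression + 1) scale of the *Zic* genes and the 10 listed neural patterning regulators, 1 point per library, coloured by group, with the 2 libraries of a group joined. K27M points (blue) coincide with control (grey) at 0 for *Sox2*, *Otx2* and *Nkx6-1* and lie near EZHIP (red) for *Isl1* and *Eomes*.

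Among 19 neural crest regulators, 5 were listed. Among all listed genes, K27M cells had 26.2% lower than EZHIP and 32.6% higher, and among those raised in EZHIP cells 40.0% and 17.8%. Of the 5 neural crest regulators, 4 were lower and 1 was higher, and the 4 were raised in EZHIP cells. *Tcfap2b* (AP-2 beta) resembled *Zic1* in this, at 0 in both control libraries, 387 and 363 in the EZHIP libraries, 20.4 and 17.5 in the K27M libraries and 551 and 545 in the EED-null libraries, with a log2 difference of -4.24 (limma, Benjamini-Hochberg adjusted p = 2.6e-06). *Tcfap2c* and *Tcfap2a* lay at 0.962% and 10.4% of their EZHIP means, *Sox9* at 26.6%, and *Ednra*, the endothelin receptor, ran opposite at 134 and 125 in K27M against 3.55 and 5.70 in EZHIP cells.

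The Hedgehog pathway, whose GLI effectors ZIC proteins resemble, had 5 of 19 genes listed, and K27M cells had 4 lower than EZHIP and 1 higher. The share over the whole table was 26.2% lower and 32.6% higher, and 40.0% of the genes raised in EZHIP cells were lower. *Ptch1*, the Hedgehog receptor, had control values of 279 and 251, EZHIP values of 840 and 722, K27M values of 176 and 199 and EED-null values of 378 and 318. *Gli1*, a transcriptional effector, stood at 46.6% of its EZHIP mean in K27M cells, a call lost without the first EZHIP or the first K27M library. *Hhip*, an inhibitor of the ligand, lay at 10.3% of the EZHIP mean, *Scube1*, a secreted protein, lay at 41.8%, and *Boc*, a co-receptor, lay higher at 260%.

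Of 59 WNT pathway genes 18 were listed. K27M cells had 5 higher and 9 lower than EZHIP, where 32.6% of all listed genes were higher and 26.2% lower. Among the 12 WNT genes raised in EZHIP cells, 1 was higher and 7 were lower, where 17.8% and 40.0% of all raised genes were. The receptor *Fzd1*, the ligands *Wnt6* and *Wnt4* and the secreted WNT inhibitor *Sfrp1* had the most negative differences among those raised in EZHIP cells, between -3.18 and -2.29, and the WNT enhancer *Rspo1* had the most positive, 2.64, a call lost with a pseudocount of 0.1. Of 29 BMP pathway genes 8 were listed, of which 4 were higher and 1 lower in K27M than in EZHIP cells, beside the same 32.6% and 26.2%. Among the 6 BMP genes raised in EZHIP cells, 2 were higher and 1 was lower, beside the same 17.8% and 40.0%.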

How the data were processed

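RNA was isolated with Trizol, ribosomal RNA was depleted, and libraries were sequenced. Per the submitters' processing notes, the authors estimated reads with RSEM 1.2.4 on mm9, and they tested differential expression with EBSeq. RNA of another cell type was spiked in, and its use in scaling is not stated. As deposited, the signal of a gene in a library is its estimated reads over a size factor, without scaling to gene length. Nearly all values of a library were, within rounding, multiples of 0.01 of what 1 read is worth. Between 71.8% and 82.3% of values were whole reads (within 0.005), too few for a count model, so values were tested on a log scale. Counting intervals used reads rounded to whole numbers. Reads set the precision, and the median gene held 92 to 170 of them per library. Replicates differed by more than sampling noise, with a chi-square per gene between 1.57 and 3.64.

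limma 3.58.1 in R 4.3.3 was fitted to log2(value + 1) in all 8 libraries with 1 mean per group, and p-values were adjusted by Benjamini-Hochberg over 875 genes. Calls needed an adjusted p under 0.05 and a 2-fold difference. In simulated libraries of 875 genes, 193 of 200 changed genes were recovered and 2 others were called. The simulation used normal noise with the fitted spread and changed only the K27M group, by the same size of step in each gene. In these data 537 genes were called in K27M against control cells, so that recovery does not carry over to the calls here. Nothing in the labels says that replicates are separate cultures, so p-values measure only the spread between these samples, which may be technical. EZHIP against control selected the table and was not tested. Comparisons that use the EZHIP or control libraries share them with that selection, so their calls and p-values are not independent of it. *Zic1* and *Zic2* and the gene lists were chosen with earlier results of these data known, and no test was applied to *Zic1* and *Zic2*. The lists hold ZIC and GLI factors, neural patterning, neural crest, Hedgehog, WNT and BMP genes, cell type markers, proneural factors (3 of 30 listed) and PRC2 and PRC1 subunits (2 of 32 listed). K27M cells had 0 proneural factors higher and 1 lower than EZHIP, and 1 subunit higher and 0 lower, against 32.6% higher and 26.2% lower over all genes. Old symbols were matched through RefSeq synonyms.

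Named genes were *Zic1*, *Zic2*, the listed ZIC, GLI and Hedgehog genes, all genes of lists with 8 or fewer in the table, the 4 most positive and 4 most negative K27M minus EZHIP differences among the raised genes of longer lists, the 5 genes most like each member, and the nearest listed neighbours. The alternatives tried were a pseudocount of 0.1 or 5, removal of genes with a mean under 5, rescaling, each library left out, a replicate block, only the 2 groups compared, a variance trend and the adjusted p-value alone. Promoters are from RefSeq (GRCm38.p6), gene models from mm9, and the 2 builds were not mixed. Figures used matplotlib 3.10.9, and tables Python 3.11.15, pandas 2.3.3, numpy 2.4.6 and scipy 1.17.1. Sequence shared among the family members is not reported here.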

Additional observations from a re-analysis of the deposited data

Results flagged for a closer look

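Several genes named above differed between K27M and EZHIP cells by the direct test of that difference (limma, Benjamini-Hochberg adjusted p under 0.05 and at least 2-fold). The EZHIP libraries also selected the table, so this test is not independent of the selection. Of the 495 genes raised in EZHIP cells, 40.0% were called lower and 17.8% higher in K27M than in EZHIP cells. *Ptch1* was higher in both EZHIP libraries and lower in both K27M libraries than in either control library, with a K27M minus EZHIP log2 difference of -2.05. *Wnt6* lay on both sides of control in the same way, with a difference of -3.16, but its higher K27M library and its lower control library both stood at 47.2. *Ednra* was lower in EZHIP and higher in K27M libraries than in control, with a difference of 4.56. The K27M minus control differences were small, at -0.50 for *Ptch1*, -0.46 for *Wnt6* and 0.34 for *Ednra*. Without rescaling, limma called none of them at these limits.

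The other differences were -4.22 for *Zic4*, -1.09 for *Gli1*, -3.24 for *Hhip*, 1.37 for *Boc* and -1.25 for *Scube1*. The *Gli1* call was lost without the first EZHIP or the first K27M library. For the neural regulators they were -7.24 for *Sox2*, -5.87 for *Otx2*, -2.29 for *En2*, -1.10 for *Irx5*, -4.99 for *Six3*, -5.36 for *Nkx6-1* and -3.18 for *Msx1*. The *Irx5* call was lost with a pseudocount of 0.1 and without any 1 of the EZHIP, K27M or EED-null libraries. For the WNT genes they were -3.18 for *Fzd1*, -2.76 for *Sfrp1*, -2.29 for *Wnt4* and 2.64 for *Rspo1*, whose call was lost with a pseudocount of 0.1. For the neural crest regulators they were -3.03 for *Tcfap2a*, -4.24 for *Tcfap2b*, -5.07 for *Tcfap2c* and -1.87 for *Sox9*.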

How the results depend on the processing

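No difference of *Zic1* or *Zic2* changed direction under the alternatives tried. Differences from control depended on the pseudocount, since control levels are near 0. With a pseudocount of 5, *Zic1* differed from control by 6.49 in EZHIP and 7.12 in EED-null cells. In K27M cells *Zic1* differed from control by 2.02, which became 1.16 with a pseudocount of 5, 2.57 with 0.1 and 1.57 after rescaling. *Zic2* differed from control in EZHIP cells by 9.70 with a pseudocount of 0.1 and 5.52 with 5, in K27M cells by 8.73 and 4.58, and in EED-null cells by 11.0 and 6.81. The K27M minus EED-null difference of *Zic2* was -2.23 with a pseudocount of 5 and -2.31 after rescaling. Rescaling on the listed genes lowered the median difference from control by 0.57 for EZHIP, by 0.61 for K27M and by 0.57 for EED-null cells (log2). It moved the calls against control from 362 higher and 175 lower to 287 and 259 in K27M cells, and from 349 and 220 to 298 and 310 in EED-null cells. The adjusted p alone called 601 genes between EED-null and EZHIP cells against 393 with the 2-fold limit. Among named genes, 23 calls were gained and 11 lost over all alternatives, and 1358 results kept their call and direction. Same-numbered replicates did not pair, with correlations of their deviations between -0.089 and 0.105, and with the replicate block 536 genes were called in K27M against control cells (537 without it) and 513 in K27M against EZHIP cells (514 without it).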
